A study of Homo sapiens and Mus musculus with 12 samples.

Results

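Clade B serpins and the A3 serpins were followed in 2 cell lines, MDA-MB-231 from human triple-negative breast cancer (TNBC) and 4T1 from a mammary carcinoma of the mouse. The human members were SERPINB1, SERPINB5, SERPINB6, SERPINB8, SERPINB9 and SERPINA3, 6 of the 63677 genes counted in MDA-MB-231. The mouse members were Serpinb1a, Serpinb5, Serpinb6a, Serpinb8, Serpinb9, Serpina3h and Serpina3n, 7 of the 47729 genes counted in 4T1. They are serpins of these clades chosen by their log2 fold changes between ponatinib and DMSO, of which several were among the highest in 4T1. The 4T1 values of the members are therefore described without a test, and the members were tested in MDA-MB-231 only. Results of both lines were known when the members were chosen. Wild-type cells of each line received 1 µM ponatinib, an inhibitor of several tyrosine kinases, or only the solvent DMSO for 24 h in culture. There were 3 libraries in each of the 4 groups and 12 in all. No source says whether the replicates of a group were separate cultures, so p-values measure only the spread between these libraries, which may be technical. Each line is a cell line in culture without the immune cells whose proteases several of these serpins inhibit.

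Serpins are protease inhibitors that expose a reactive loop, trap the protease that cuts it and are themselves spent in the reaction. Clade B serpins lack a classical secretion signal and act mostly inside the cell, where they limit damage from the cell's own proteases or from proteases delivered by leukocytes. SERPINA3 (alpha-1-antichymotrypsin) is by contrast a secreted acute phase protein, and the mouse carries a cluster of Serpina3 paralogs in its place. In epithelial tumors, clade B serpins are known both as inhibitors of cell death by cytotoxic lymphocytes and, in the case of SERPINB5 (maspin), as a suppressor of tumor growth.

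Promoters of SERPINB1 and of mouse Serpinb1a and Serpinb8 are shown because the mouse pair had the highest log2 fold changes of the members in 4T1 and SERPINB1 was the member that rose in MDA-MB-231. Each sequence runs 5′ to 3′ from 250 bases before to 50 bases after a transcription start site. Human sequences are those of RefSeq on GRCh38.p14 and mouse sequences were read from GRCm39 at the start of the canonical transcript of GENCODE. A promoter was found for 6 of 6 human and 7 of 7 mouse members. Capitals mark matches, on either strand, to AP-1 (TGANTCA), STAT (TTCNNNGAA) or C/EBP (TTGCNNAA). The human SERPINB1 promoter lies at chr6:2841814-2842113 on the minus strand and that of mouse Serpinb1a at chr13:33035119-33035418 on the minus strand. The promoter of mouse Serpinb8 lies at chr1:107517450-107517749 on the plus strand.
SERPINB1: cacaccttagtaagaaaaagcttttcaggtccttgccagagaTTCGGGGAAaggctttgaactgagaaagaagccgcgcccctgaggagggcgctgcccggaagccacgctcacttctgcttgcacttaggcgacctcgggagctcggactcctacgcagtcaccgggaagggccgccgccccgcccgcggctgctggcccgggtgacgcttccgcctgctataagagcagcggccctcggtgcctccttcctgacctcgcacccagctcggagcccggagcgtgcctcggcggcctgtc
Serpinb1a: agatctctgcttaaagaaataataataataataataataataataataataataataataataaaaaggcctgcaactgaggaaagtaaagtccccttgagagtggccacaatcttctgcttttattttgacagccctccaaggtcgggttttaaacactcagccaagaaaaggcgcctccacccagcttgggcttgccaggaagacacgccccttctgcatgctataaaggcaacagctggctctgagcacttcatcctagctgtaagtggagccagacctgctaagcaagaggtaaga
Serpinb8: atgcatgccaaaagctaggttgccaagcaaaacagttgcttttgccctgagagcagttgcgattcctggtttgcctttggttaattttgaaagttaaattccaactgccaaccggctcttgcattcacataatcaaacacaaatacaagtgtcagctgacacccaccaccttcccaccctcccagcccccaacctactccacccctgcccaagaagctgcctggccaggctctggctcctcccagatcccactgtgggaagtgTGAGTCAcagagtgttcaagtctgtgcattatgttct

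SERPINB5 and Serpinb5 each held an AP-1 match, at -146 and -110 from the start site. Serpina3h held a STAT match at -233 and Serpina3n an NF-kB match at -14. No match was found for SERPINB6, SERPINB9, SERPINA3, Serpinb6a or Serpinb9. In the SERPINB1 and SERPINB8 pairs the matches differed in kind or position between human and mouse. SERPINB8 held an AP-1 match at positions -185 and -28 relative to the start site, a STAT match at -231 and a C/EBP match at -57, whereas mouse Serpinb8 held an AP-1 match at position 14 after the start. SERPINB1 held a STAT match at -208, and Serpinb1a held none of these letters in this window. None of these matches overlapped another. Among all 35116 human promoters of this length, 7.71% held an AP-1, 7.66% a STAT and 10.5% a C/EBP match. Among 21771 mouse promoters the shares were 7.14%, 8.82% and 10.7%. An NF-kB match was held by 1.91% of the human and 1.76% of the mouse promoters. The SERPINB1 promoter had a GC content of 65.7% with 27 CpG dinucleotides, and the Serpinb1a promoter 42.3% with 3. The SERPINB8 promoter had 48.7% with 9 CpG dinucleotides, and the Serpinb8 promoter 50.3% with 2. The median GC content of all promoters was 58.7% in human and 54.3% in mouse.

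The libraries held 15012884 to 17301760 counts in MDA-MB-231 and 17800675 to 18951493 counts in 4T1. A count of 0 in a library allows a level of up to 3 counts, which is 0.158 to 0.2 CPM (counts scaled to the library's TMM-adjusted total), and such limits cover counting error only. Ponatinib was compared with DMSO in each line apart by the quasi-likelihood test of edgeR on TMM-normalized counts, with Benjamini-Hochberg adjustment over all tested genes and a call at an adjusted p-value under 0.05. Ponatinib raised 3975 and lowered 3918 of 14610 tested MDA-MB-231 genes, and raised 3925 and lowered 3909 of 13286 tested 4T1 genes. Scaling by total counts instead moved these splits to 4641 higher and 3097 lower and to 4854 higher and 2935 lower, with a median log2 fold change over all genes of 0.11 and 0.12. Markers of leukocytes, endothelium and adipocytes summed to 0 to 0.464 CPM in the MDA-MB-231 libraries and 1.19 to 1.78 CPM in the 4T1 libraries, and 4 of these 9 markers were at 0 in every library of each line.

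In MDA-MB-231, ponatinib raised SERPINB1 and lowered SERPINB8 and SERPINB9, while SERPINB6, the member with the most counts, was not called. Of the 6 human members, 4 passed the filter on low counts and were tested, with 1 higher, 2 lower and 1 not called. Over all tested genes 27.2% were higher, 26.8% lower and 54.0% called in either direction, and with only 4 tested members nothing particular to them is read from 3 calls. In bulk RNA, fewer cells of a kind and less RNA per cell cannot be told apart.

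SERPINB1, an inhibitor of the neutrophil proteases elastase, cathepsin G and proteinase 3, lies at chr6:2832332-2841959 (GRCh38). It had 654, 578 and 622 counts in the DMSO libraries and 997, 1044 and 1103 with ponatinib. Every ponatinib library lay above every DMSO library. The mean rose from 39.98 ± 3.06 to 63.3 ± 3.08 CPM (SD, n = 3), 1.58-fold, with a log2 fold change of 0.66 ± 0.09 (SE; edgeR, adjusted p = 6.67e-05).

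SERPINB8, an inhibitor of the proprotein convertase furin, lies at chr18:63970029-64019779. It had 335, 304 and 309 counts with DMSO and 113, 152 and 141 with ponatinib, with no overlap between the groups. Its mean fell from 20.4 ± 1.54 to 8.18 ± 1.34 CPM (SD, n = 3), 2.50-fold lower, with a log2 fold change of -1.32 ± 0.14 (SE; edgeR, adjusted p = 9.36e-06). Exons of HMSD on the same strand cover 370 of the 5764 exon bases of SERPINB8, and HMSD moved the other way, from 5.94 to 8.37 CPM on average (edgeR, log2 fold change 0.49, adjusted p = 0.0242).

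SERPINB9, the inhibitor of granzyme B that protects cells from cytotoxic lymphocyte granules, lies at chr6:2887270-2903309. It had 82, 86 and 108 counts with DMSO and 41, 59 and 69 with ponatinib, and the groups did not overlap. Its mean fell from 5.93 ± 0.748 to 3.37 ± 0.683 CPM (SD, n = 3), 1.75-fold lower, with a log2 fold change of -0.81 ± 0.20 (SE; edgeR, adjusted p = 0.00467). Of its stretches of 100 transcript bases, 1.41% also occur in MFN1. The groups of all tested genes did not overlap in 60.4% of cases in MDA-MB-231, 30.6% higher and 29.8% lower.

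SERPINB6, an inhibitor of cathepsin G and trypsin-like proteases, lies at chr6:2948159-2972165. It had 2493, 2174 and 2048 counts with DMSO and 2979, 2229 and 2587 with ponatinib, and the groups overlapped. The log2 fold change was 0.12, with a 95% interval of -0.15 to 0.38 (edgeR, adjusted p = 0.444). With the replicate number as a block it was called, at a log2 fold change of 0.11 (edgeR, adjusted p = 0.0283), and without ponatinib replicate 1 it was -0.033 (edgeR, adjusted p = 0.797). SERPINB5 had 1 count, in ponatinib replicate 2, and SERPINA3 had none in any of the 6 libraries, so neither was tested. Exons of ENSG00000273259 on the same strand, which was also at 0, cover 1585 of the 5000 exon bases of SERPINA3. The canonical transcript of SERPINA3 has only 1576 bases, and the handling of reads that fall in both genes is not given. Its counts of 0 therefore do not show that SERPINA3 was absent.

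**Figure D1:**
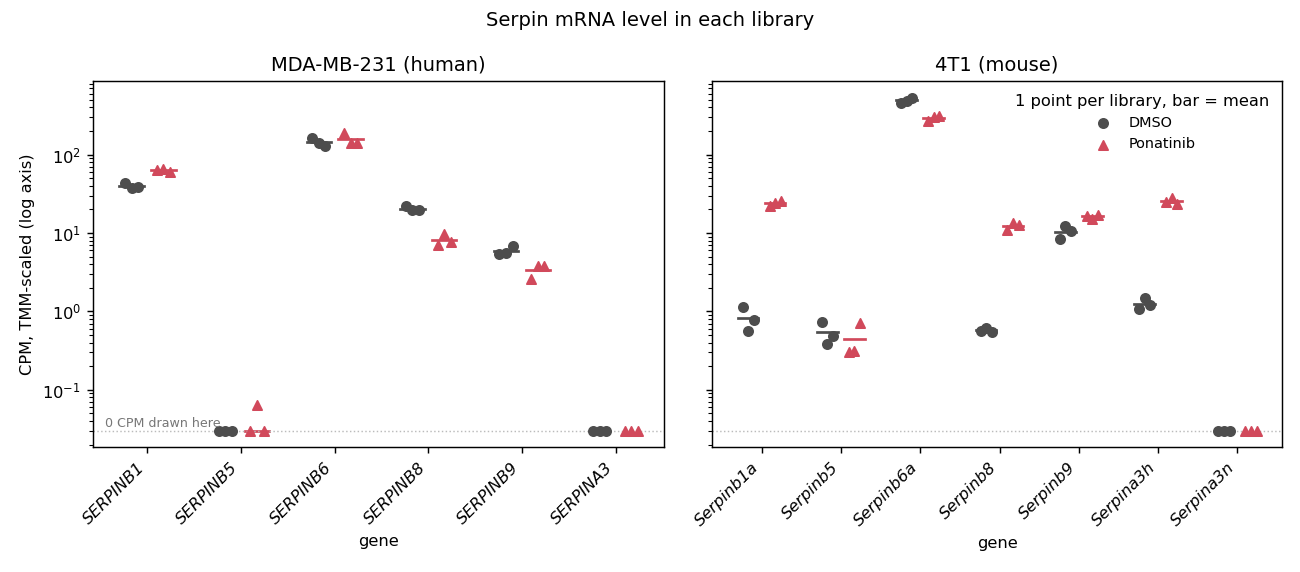
TMM-scaled CPM of every member (x axis) in every library on a log axis, with 1 point per library, a bar for the mean, circles for DMSO and triangles for ponatinib, and 0 CPM drawn on the dotted line. The ponatinib points of Serpinb1a, Serpinb8 and Serpina3h lie between 10.9 and 27.9 CPM in 4T1, above DMSO points of 0.547 to 1.501 CPM, whereas SERPINB8 points of MDA-MB-231 lie lower with ponatinib than with DMSO.

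In 4T1, 3 members that averaged 0.575 to 1.26 CPM with DMSO reached 12.4 to 25.4 CPM with ponatinib, and the most abundant member, Serpinb6a, was lower. Of the 7 mouse members, 5 passed the filter on low counts, and in these the ponatinib libraries lay above the DMSO libraries without overlap for 4 genes and below them for 1. Over all tested genes the same was true of 32.6% and 30.8%, or 63.4% in either direction. These values chose the members, so nothing is read from the counts. The log2 fold changes of the 3 steepest rises ranked 24th, 32nd and 34th from the top of the 13286 tested genes.

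Serpinb1a, the mouse gene for the neutrophil protease inhibitor, lies at chr13:33026042-33035224 (GRCm39). It had 20, 10 and 14 counts with DMSO and 429, 468 and 473 with ponatinib. Its level went from 0.819 ± 0.293 to 23.9 ± 1.87 CPM (SD, n = 3), 29.1-fold, with a log2 fold change of 4.86 ± 0.19 (SE). The paralogs Serpinb1b and Serpinb1c were at 0 in every library, and no stretch of 100 bases of a Serpinb1a transcript was found in another gene.

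Serpinb8 lies at chr1:107517700-107539280. It had 10, 11 and 10 counts with DMSO and 214, 260 and 234 with ponatinib. Its level went from 0.575 ± 0.0330 to 12.4 ± 1.28 CPM (SD, n = 3), 21.2-fold, with a log2 fold change of 4.41 ± 0.20 (SE). In MDA-MB-231, SERPINB8 averaged 20.4 CPM with DMSO and 8.18 CPM with ponatinib, and since the lines were counted and normalized separately the levels are only set side by side.

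Serpina3h lies at chr12:104216411-104219928 and is annotated as a transcribed unprocessed pseudogene in GENCODE, within the A3 cluster. It had 19, 27 and 22 counts with DMSO and 486, 540 and 431 with ponatinib. Its level went from 1.26 ± 0.217 to 25.4 ± 2.31 CPM (SD, n = 3), 20.0-fold, with a log2 fold change of 4.32 ± 0.16 (SE). Of its distinct stretches of 100 bases, 4.26% occurred in a gene of another name, most often in Serpina3g. Of stretches of 50 bases 23.9% did, most often in Serpina3i, so reads may be split between the paralogs. A long noncoding RNA gene of the same name covers all 1226 of its exon bases on the same strand and was not counted. These shares leave that gene out. Summed over the 11 Serpina3 genes, the log2 fold change was 4.50, and Serpina3h held 86.1% of these reads with DMSO and 76.0% with ponatinib. Serpina3n, which is induced in many inflamed tissues, was at 0 in all 6 libraries.

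Serpinb9 lies at chr13:33187233-33201940. It had 149, 221 and 194 counts with DMSO and 324, 296 and 313 with ponatinib, so that its groups did not overlap. Its level went from 10.4 ± 1.92 to 16.3 ± 0.875 CPM (SD, n = 3), 1.56-fold, with a log2 fold change of 0.64 ± 0.14 (SE). Summed over the 8 Serpinb9 genes, the log2 fold change was 0.37, with 73.5% of the reads in Serpinb9 with DMSO and 88.9% with ponatinib.

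Serpinb6a lies at chr13:34100229-34186812. It had 8160, 8589 and 9756 counts with DMSO and 5291, 5838 and 5738 with ponatinib, with the ponatinib libraries lower throughout. Its level went from 491.2 ± 37.4 to 294.4 ± 21.3 CPM (SD, n = 3), 1.67-fold lower, with a log2 fold change of -0.74 ± 0.08 (SE). On the opposite strand, exons of Nqo2 cover 762 and those of 1110046J04Rik and Ripk1 628 and 241 of its 7602 exon bases, and the strand setting of the counting is not given. Nqo2 had 3188 counts in the DMSO libraries and 2936 with ponatinib, against 26505 and 16867 for Serpinb6a. Serpinb5 had 13, 7 and 9 counts with DMSO and 6, 6 and 13 with ponatinib, and was not tested.

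**Figure D2:**
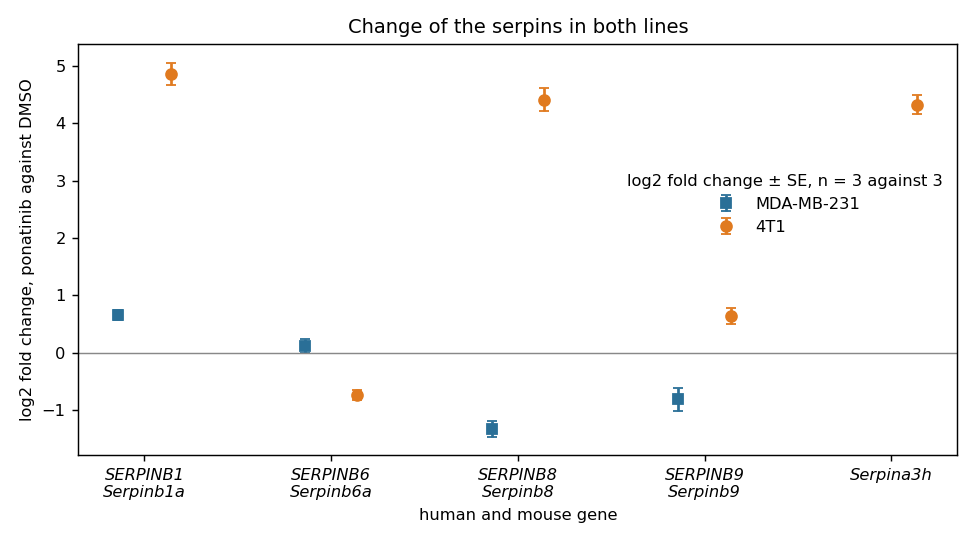
Log2 fold change of ponatinib against DMSO (y axis) with its SE for each member that passed the filter on low counts, human genes as squares and their mouse genes as circles, with 3 libraries against 3. SERPINB1 and Serpinb1a lie above 0 at 0.66 and 4.86, and SERPINB8 and Serpinb8 lie on opposite sides of 0 at -1.32 and 4.41.

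Compared per length of canonical transcript, SERPINB6 led the members in MDA-MB-231 and Serpinb6a those in 4T1, and only the lead of Serpinb6a held over the length of all annotated exons. In TMM-scaled CPM per kilobase of canonical transcript (RPKM), MDA-MB-231 with DMSO held SERPINB6 at 110.3 ± 14.2, SERPINB1 at 16.1 ± 1.24, SERPINB8 at 6.16 ± 0.463 and SERPINB9 at 1.43 ± 0.181 (SD, n = 3). With ponatinib the RPKM levels were 119.5 ± 20.2, 25.6 ± 1.24, 2.46 ± 0.403 and 0.815 ± 0.165. No 2 neighbors in these orders overlapped between libraries. The order of SERPINB6 and SERPINB1 depended on the length used: over all annotated exons, a choice added after the data were seen, SERPINB1 averaged 13.1 and SERPINB6 11.0 RPKM with DMSO, with overlapping ranges, and 20.8 and 11.9 RPKM with ponatinib, without overlap.

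In 4T1 with DMSO, Serpinb6a stood at 152.6 ± 11.6 RPKM, Serpinb9 at 3.07 ± 0.565, Serpina3h at 1.03 ± 0.177 and Serpinb1a at 0.427 ± 0.153 (SD, n = 3). Serpinb5 at 0.207 ± 0.0688 and Serpinb8 at 0.125 ± 0.00715 RPKM followed. Serpinb1a and Serpinb5, and Serpinb5 and Serpinb8, were separated by less than 2 SD, and over all annotated exons the ranges of Serpinb1a and Serpinb5 overlapped. With ponatinib the order was Serpinb6a at 91.5 ± 6.60, Serpina3h at 20.7 ± 1.88, Serpinb1a at 12.5 ± 0.976, Serpinb9 at 4.79 ± 0.258, Serpinb8 at 2.68 ± 0.277 and Serpinb5 at 0.169 ± 0.0881 RPKM, and no neighbors overlapped. Serpina3h and Serpinb1a thus stood below Serpinb9 with DMSO and above it with ponatinib.

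The make-up of clade B mRNA was computed from the levels per canonical transcript. In 4T1, Serpinb6a held 93.6% to 93.8% of the summed clade B RPKM in the DMSO libraries and 71.6% to 71.9% in the ponatinib libraries. Serpinb1a went from 0.183% to 0.385% up to 9.65% to 9.95%, and Serpinb8 from 0.0670% to 0.0836% up to 2.02% to 2.23%. In MDA-MB-231, SERPINB6 held 79.6% to 82.2% with DMSO and 77.6% to 83.3% with ponatinib, which overlap. SERPINB1 went from 11.4% to 12.8% up to 14.8% to 19.3%, and SERPINB8 from 4.38% to 4.75% down to 1.25% to 2.10%. Over all annotated exons the SERPINB6 share was 33.7% to 37.8% with DMSO and 30.3% to 38.4% with ponatinib, below SERPINB1 at 41.5% to 44.3% and 55.7% to 61.5%, and the Serpinb6a share in 4T1 was 89.3% to 89.5% and 61.2% to 61.5%. The summed clade B RPKM itself was 153.5 to 176.7 with DMSO and 117.3 to 134.4 with ponatinib in 4T1.

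**Figure D3:**
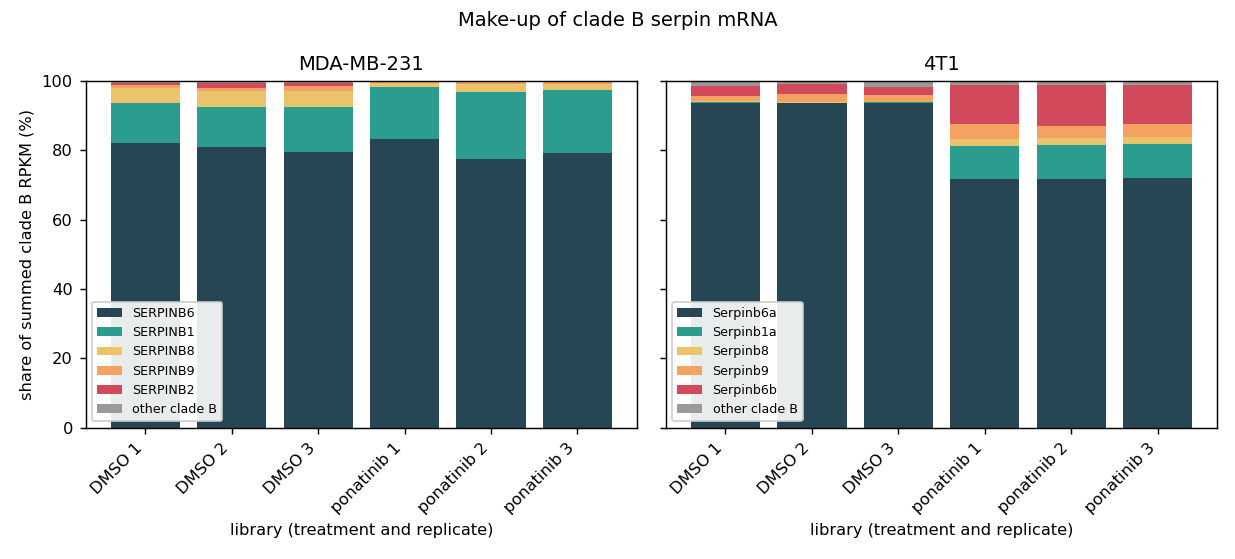
Share of each gene in the summed clade B RPKM (y axis, percent) for each library (x axis), as stacked bars of levels per canonical transcript, with MDA-MB-231 at the left and 4T1 at the right. The Serpinb6a part of the 4T1 bars shrinks from at least 93.6% with DMSO to at most 71.9% with ponatinib, while the SERPINB6 part of the MDA-MB-231 bars overlaps between the treatments.

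The other clade B serpins did not move as a block. In 4T1, 4 of 23 passed the filter, with 1 higher, 2 lower and 1 not called, at a median log2 fold change of -0.53 against 0.00 over all tested genes, of which 29.5% were higher and 29.4% lower. Serpinb6b, a paralog of Serpinb6a in the same cluster, had 163, 184 and 181 counts with DMSO and 576, 651 and 615 with ponatinib (edgeR, log2 fold change 1.71 ± 0.11 SE, adjusted p = 1.13e-08), while Serpinb6a was lower. Serpinb9c had 28, 15 and 22 counts with DMSO and 11, 10 and 5 with ponatinib (edgeR, log2 fold change -1.40 ± 0.40 SE, adjusted p = 0.00747). Serpinb9g, named after its values were seen, had 46 counts over the DMSO libraries and 6 over the ponatinib libraries (edgeR, adjusted p = 0.000204). Leaving out any DMSO library or ponatinib replicate 1 brought the number higher from 1 to 2.

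In MDA-MB-231, 2 of 8 other clade B genes were tested and both were lower, at a median of -2.44 against 0.02 over all tested genes. SERPINB2, known as plasminogen activator inhibitor type 2, had 28, 59 and 35 counts with DMSO and 3, 6 and 0 with ponatinib (edgeR, log2 fold change -3.80 ± 0.59 SE, adjusted p = 0.000199). SERPINB7 had 22, 21 and 24 counts with DMSO and 11, 7 and 16 with ponatinib (edgeR, log2 fold change -1.08 ± 0.34 SE, adjusted p = 0.0175). Its call was lost without DMSO replicate 3 (edgeR, adjusted p = 0.0519, log2 fold change -1.05), without ponatinib replicate 2 (edgeR, adjusted p = 0.0751, log2 fold change -0.87) and with DESeq2 (adjusted p = 0.0838, log2 fold change -1.115).

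**Figure D4:**
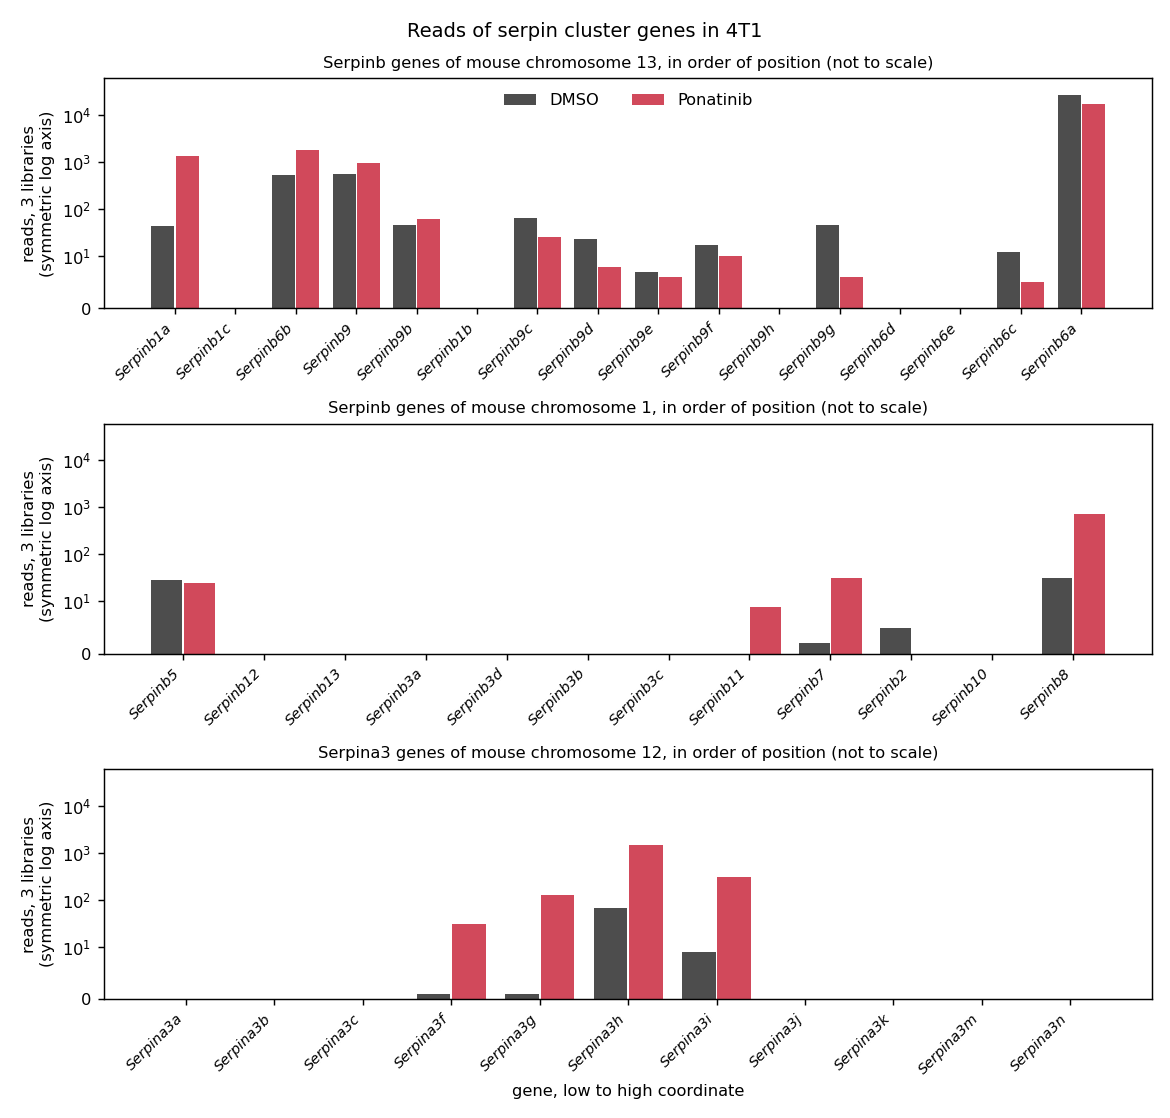
Reads summed over 3 libraries (y axis, symmetric log scale) for the Serpinb genes of mouse chromosomes 13 and 1 and the Serpina3 genes of chromosome 12 in 4T1, in order of position along the x axis, not to scale, with DMSO and ponatinib bars. Serpinb1a, Serpinb6b and Serpinb8 have taller ponatinib bars, Serpinb6a and Serpinb9g shorter ones, and of the 11 Serpina3 genes only Serpina3f, Serpina3g, Serpina3h and Serpina3i have reads.

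The other A3 paralogs of the mouse and serpins of other clades were taken as 1 list. In 4T1, 6 of its 32 genes were tested, with 2 higher and 4 lower, at a median log2 fold change of -0.72. The 2 higher genes were A3 serpins, paralogs of the member Serpina3h in the same cluster. Serpina3g had 1 count over the DMSO libraries and 127 over the ponatinib libraries, a ratio of 129.4 with a 95% counting interval of 22.8 to 5152 (edgeR, adjusted p = 6.54e-07). Serpina3i had 0, 2 and 7 counts with DMSO and 102, 104 and 95 with ponatinib (edgeR, log2 fold change 4.92 ± 0.43 SE, adjusted p = 2.36e-07). Both Serpina3g and Serpina3i share sequence with Serpina3h. Serpine2, protease nexin, had 42, 52 and 44 counts with DMSO and 0, 1 and 3 with ponatinib (edgeR, log2 fold change -5.07 ± 0.52 SE, adjusted p = 1.03e-06).

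In MDA-MB-231, 7 of 20 serpins of other clades were tested, with 2 higher, 2 lower and 3 not called, at a median of -0.04. SERPINH1, a collagen chaperone without inhibitor activity, fell by 0.26 on the log2 scale (edgeR, adjusted p = 0.00827). SERPINF2, the plasmin inhibitor, rose by 1.26 (edgeR, adjusted p = 8.52e-05) and SERPINI1, neuroserpin, by 0.97 on the log2 scale (edgeR, adjusted p = 0.00307).

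Most proteases that these serpins inhibit had too few reads to be tested in either line, whereas the receptor that clears serpin-protease complexes rose in both. Of the 20 human and 18 mouse genes of this list, 5 were tested in each line, with 2 genes up and 2 down in MDA-MB-231 at a median log2 fold change of 0.22, and 3 higher and 2 lower in 4T1 at a median of 0.98. Of the targets of SERPINB1 and SERPINB9 in MDA-MB-231, CTSG (cathepsin G) and GZMB (granzyme B) were at 0 in every library. PRTN3 (proteinase 3) and ELANE (elastase), named after their values were seen, had 0 counts with DMSO. With ponatinib PRTN3 had 8, 5 and 3 counts and ELANE 2, 1 and 1, and neither was tested. LRP1, the endocytic receptor of the complexes, had 431, 483 and 543 counts with DMSO and 1633, 1549 and 2014 with ponatinib in MDA-MB-231 (edgeR, log2 fold change 1.73 ± 0.09 SE, adjusted p = 5.88e-08). Lrp1 rose by 1.47 ± 0.14 (SE) in 4T1 (edgeR, adjusted p = 4.58e-07). Furin, the convertase that SERPINB8 inhibits, fell by 0.29 on the log2 scale in MDA-MB-231 (FURIN; edgeR, adjusted p = 0.00461) and by 0.60 in 4T1 (Furin; edgeR, adjusted p = 1.67e-05). FURIN fell in the line where SERPINB8 fell, and Furin fell in the line where Serpinb8 was higher.

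Of the inflammatory caspases, CASP1 rose in MDA-MB-231 by 0.89 ± 0.13 on the log2 scale (SE; edgeR, adjusted p = 0.000128) and CASP4 fell by 0.79 ± 0.08 (SE; edgeR, adjusted p = 8.56e-06). In 4T1, Casp4 rose by 0.98 ± 0.14 (SE; edgeR, adjusted p = 2.28e-05), and the mast cell tryptase gene Tpsab1 fell by 0.97 (edgeR, adjusted p = 0.000239).

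Genes of the acute phase response moved in both directions, with 6 higher and 5 lower among 13 tested in the human line, and 6 of 14 higher and 4 lower in 4T1. Their medians were -0.06 and 0.20. In MDA-MB-231, the iron-sequestering lipocalin LCN2 rose by 2.64 ± 0.30 (SE; edgeR, adjusted p = 1.88e-05), SAA2 by 1.61 (edgeR, adjusted p = 0.00895) and CEBPD by 1.115 (edgeR, adjusted p = 4.18e-05), while SOCS3, a feedback inhibitor of cytokine signaling, fell by 1.02 on the log2 scale (edgeR, adjusted p = 1.37e-06). In 4T1, Lbp rose by 2.37 ± 0.08 (SE; edgeR, adjusted p = 2.23e-11), C3 by 1.58 (edgeR, adjusted p = 2.87e-09) and Cp by 1.49 (edgeR, adjusted p = 1.86e-08), while Lcn2 fell by 1.33 on the log2 scale (edgeR, adjusted p = 1.24e-07).

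Genes of basal and squamous epithelium, where clade B serpins are abundant, were likewise mixed, with 6 of 13 tested higher and 3 lower in the human line and 7 of 19 higher and 5 lower in 4T1. Their medians were 0.27 and 0.13. In MDA-MB-231, ELF3, an epithelial ETS factor, had 3 counts over the DMSO libraries and 628 over the ponatinib libraries, a ratio of 208.4 with a 95% counting interval of 71.0 to 1013 (edgeR, adjusted p = 6.96e-09). JUP rose by 2.23 on the log2 scale (edgeR, adjusted p = 2.25e-08) and ITGB4 from 1044 to 4487 counts over 3 libraries (edgeR, adjusted p = 1.02e-08). In 4T1, Sprr1a, a cornified envelope gene, fell by 3.01 ± 0.11 (SE; edgeR, adjusted p = 3.09e-11) and Grhl2 by 1.22 (edgeR, adjusted p = 2.33e-05), while Itgb4 rose by 1.37 on the log2 scale (edgeR, adjusted p = 3.51e-08).

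Genes beside the serpins did not move together. Within 500 kb of a member, 21 of 55 genes other than serpins were tested in MDA-MB-231, with 6 higher, 5 lower and 10 not called at a median of 0.03. In 4T1, 15 of 66 were tested, with 4 higher, 4 lower and 7 not called at a median of -0.17, and the replicate block made 7 lower. Beside the chromosome 6 serpins, TUBB2B had 14, 11 and 18 counts with DMSO and 52, 66 and 62 with ponatinib (edgeR, log2 fold change 1.96 ± 0.27 SE, adjusted p = 7.31e-05), and MYLK4 rose by 1.84 (edgeR, adjusted p = 0.0118). Without DMSO replicate 3 or ponatinib replicate 2, 3 MDA-MB-231 neighbors were higher, and MYLK4 had an adjusted p of 0.0547 without DMSO replicate 3 (edgeR). Without ponatinib replicate 2 or 3, 2 neighbors of the 4T1 serpins were lower.

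BCL2, a cell survival gene near SERPINB5, fell by 1.20 ± 0.21 (SE; edgeR, adjusted p = 0.000423) in MDA-MB-231, and Bcl2 rose by 0.72 ± 0.11 (SE; edgeR, adjusted p = 4.15e-05) in 4T1. Bphl, an esterase gene beside Serpinb6a, rose by 1.501 ± 0.11 (SE; edgeR, adjusted p = 4.60e-08) and Clmn, near Serpina3n, by 1.42 ± 0.11 (SE; edgeR, adjusted p = 1.10e-07) in 4T1. Human BPHL, near SERPINB6 and named after its values were seen, rose by 1.12 in MDA-MB-231 (edgeR, adjusted p = 2.16e-05). Wrnip1, whose gene body spans Serpinb1a without shared exon bases, had a log2 fold change of -0.24 (edgeR, adjusted p = 0.0284) in 4T1, where Serpinb1a had 4.86. It is named after its values were seen.

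The genes whose values over the 6 libraries lay nearest those of SERPINB8 in MDA-MB-231, among 9494 genes that averaged 10 CPM or more with either treatment, were EIF5A2, LIF and SUV39H2. Their root mean square distances in log2 CPM, centered on the DMSO mean, were 0.0717, 0.104 and 0.109. EIF5A2 averaged 20.5 CPM with DMSO and 8.40 CPM with ponatinib, against 20.4 and 8.18 CPM for SERPINB8. For Serpinb1a in 4T1, among 9443 genes, the nearest were Sptssb at 0.331, Serpinb8 at 0.490 and Ace at 0.510. The distance is mostly set by the log2 fold change, which also chose the members, so nothing is read from the place of Serpinb8 among them. Sptssb averaged 1.24 CPM with DMSO and 29.0 CPM with ponatinib.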

How the data were processed

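The deposited values are counts per gene, whole numbers that the authors made by aligning trimmed reads with HISAT2 to hg38 or GRCm39 and counting them with HTSeq, per the labels and the study's methods. RNA was isolated with TRIzol and NEBNext Ultra libraries were prepared. Tool versions, annotation and strand setting are not given in the sources used here. Names, coordinates and lengths are from GENCODE v44 and vM39, which matched 81.9% of the human and 91.1% of the mouse identifiers, holding 99.3% and 99.8% of the counts.

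Each line was fitted apart with the quasi-likelihood test of edgeR 4.0.16 in R 4.3.3, after filterByExpr and TMM, and p-values were adjusted by Benjamini-Hochberg. The study used DESeq2, which was run as an alternative (version 1.42.0). CPM and RPKM were derived from those counts with TMM-scaled totals and the canonical transcript length. Alternatives were other size factors, total counts, the replicate block, a minimum of 10 counts per library, no filter, each library left out, an unadjusted p-value under 0.05 with a 1.5-fold change, summed paralogs and neighbors within 250 kb.

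The members and lists were chosen with earlier results of these data known. The lists (other clade B serpins, other A3 paralogs with serpins of other clades, proteases and receptor, acute phase, basal and squamous epithelium, and cell type markers) were written from general knowledge. In each list and line, the up to 4 called genes with the largest absolute log2 fold change and at least 1 CPM in the higher group are named, and of the neighbors up to 3. For the member with the largest absolute log2 fold change in each line, the 3 nearest genes are named. Other genes are marked as chosen after their values were seen. Some genes that the rule includes are not reported here.

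Same-numbered DMSO and ponatinib libraries deviated together from their group means (correlations of 0.111 to 0.345), and differently numbered ones had correlations of -0.26 to 0.163. In MDA-MB-231, DMSO replicate 2 correlated at 0.163 with ponatinib replicate 3 and at 0.111 with ponatinib replicate 2. In 4T1, DMSO replicate 3 correlated at 0.119 with ponatinib replicate 2 and at 0.115 with ponatinib replicate 3. The pairing of samples by number rests on these values alone and is unsure for replicates 2 and 3. The chi-square per gene between replicates was 2.93 to 16.5, and no library was a copy of another. On simulated data, the MDA-MB-231 comparison recovered 94.5% of 199 changed genes among 14396 with 12 false calls, and the 4T1 comparison 95.5% of 199 among 13127 with 3 false calls. Protein sequences were not used here.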

Additional observations from a re-analysis of the deposited data

Results flagged for a closer look

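Of the members and the genes named by rule that were tested in both lines, those are given where every ponatinib library of a line lay on one side of every DMSO library and the libraries of the other line lay on the opposite side. The differences between the lines were not tested. Each is the log2 fold change of 4T1 minus that of MDA-MB-231. For SERPINB8 the difference was 5.73 (4.41 in 4T1 and -1.32 in MDA-MB-231), and for SERPINB9 it was 1.45 (0.64 and -0.81). The 4T1 values of both genes took part in the choice of members, so nothing is read from either difference. For SERPINE2, protease nexin, it was -5.24, with -5.07 in 4T1 at 2.56 CPM with DMSO and 0.17 in MDA-MB-231 at 82.3 CPM. The value of SERPINE2 in MDA-MB-231 was not called (edgeR, adjusted p = 0.118). For LCN2 the difference was -3.97, with levels with DMSO of 69.9 CPM in 4T1 and 0.562 CPM in MDA-MB-231. For CLMN it was 1.97, for BCL2 1.91 and for CASP4 1.77.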

How the results depend on the processing

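Of 735 values of named genes under the alternatives, 704 kept their direction and side of the threshold or moved by less than the replicate spread, 13 lost their call, 1 gained it, 16 moved by more than the spread and 1, SERPINB6 at -0.033 without ponatinib replicate 1, reversed (range without 1 library -0.033 to 0.21). The 4 members of 4T1 with higher ponatinib libraries and the 1 with lower stayed so in number under all 13 alternatives. These 4T1 values chose the members, and leaving out a library could hardly make separate groups overlap, so nothing is read from this. In MDA-MB-231 the number lower stayed at 2. The replicate block raised the number of members higher in MDA-MB-231 from 1 to 2 and of lower neighbors in 4T1 from 4 to 7, and changed no other call of a named gene. In MDA-MB-231, DESeq2 left 1 lower other clade B gene and 3 higher neighbors, a minimum of 10 counts per library left 0 and 3, and no filter gave 4 higher proteases. By unadjusted p-value and fold change, 1 serpin of other clades, 1 protease and 3 acute phase genes were lower there. In 4T1, other clade B genes numbered 2 higher with DESeq2 and 3 without a filter, and at least 10 counts in every library left 0 lower and 0 higher genes among A3 paralogs and serpins of other clades, since it removes the low genes. Total counts left 2 lower neighbors in 4T1, and the unadjusted rule 4 higher basal and squamous genes. Leaving out 1 library gave 1 to 2 lower other clade B genes and 3 to 5 higher neighbors in MDA-MB-231, and 1 to 2 higher other clade B genes and 2 to 5 lower neighbors in 4T1. Except where the filter removes genes, the cause was not tested. The log2 fold change of Serpinb6a was -0.62 with total counts and -0.62 with summed paralogs, and that of Serpinb9 0.37 with summed paralogs. SERPINB5 and Serpinb5 had too few counts for a test, and SERPINA3 and Serpina3n had no counts.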

Other observations

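Marker genes of the cell lines, listed as a check of the labels, also moved. In MDA-MB-231 the keratin gene KRT8 rose by 0.88 ± 0.11 on the log2 scale (SE; edgeR, adjusted p = 2.94e-05) and the mesenchymal genes VIM and ZEB1 fell by 0.66 (edgeR, adjusted p = 0.000236) and 0.50 (edgeR, adjusted p = 0.00638), while the EPCAM value of 0.41 (edgeR, adjusted p = 0.0328) lost its call under 6 of 12 alternatives. ERBB2, a receptor tyrosine kinase gene, rose by 0.81 (edgeR, adjusted p = 5.71e-06). In 4T1, Krt18 fell by 0.54 (edgeR, adjusted p = 0.000125), Zeb1 fell by 0.36 (edgeR, adjusted p = 0.00138) and Esr1 rose by 0.89 on the log2 scale (edgeR, adjusted p = 0.00120), and Vim had a log2 fold change of 0.15 (edgeR, adjusted p = 0.176). Krt8 had 0.24 (edgeR, adjusted p = 0.0298) and lost its call under 3 of 12 alternatives.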
